A study of Sus scrofa with 2 samples.

Results

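The miR-34 and miR-449 miRNAs form one family because they share a seed, the bases at positions 2 to 8 that a miRNA uses to recognise its target mRNAs. The miR-34 genes are known as direct transcriptional targets of the tumour suppressor p53, and their miRNAs repress mRNAs that drive the cell cycle and cell survival, such as those of cyclin-dependent kinases, MYC, BCL2 and SIRT1. In mammals miR-34a is made in many tissues, whereas miR-34c and the miR-449 miRNAs are known mainly from multiciliated epithelia and the testis.

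Members were all IDs of the array table that begin with ssc-miR- and continue with the number of either family. This gave 2 of the 355 probes, ssc-miR-34a and ssc-miR-34c. Both are miR-34 miRNAs, and 0 members are named miR-449. One further probe, Y-91, was designed by the authors from miR-449a of other species. It lies outside the rule by its name and is described beside the members.

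The arrays compared anterior pituitaries of Bama minipigs (YB), a small Chinese breed of low growth, with those of Landrace pigs (YC), a large commercial breed, to find miRNAs linked to postnatal growth. The pigs were healthy female piglets 20 days old, and the RNA of 3 pigs per breed was combined into 1 pool and hybridized to 1 array. The values are Cy5 signal intensities in arbitrary units, after the authors' background subtraction and LOWESS normalization. The median signal over the 355 probes was 114 for Bama minipigs and 95.1 for Landrace pigs. With 1 array per breed there was no replicate check, variation among pigs was not measurable, and no p-value was computed. A probe's signal also depends on how well it binds its miRNA, so a rank places a signal on its array and does not count molecules.

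The labelled tissue was checked against miRNAs known to be abundant in pituitary endocrine and epithelial cells. Of these, ssc-miR-7 ranked first on both arrays (35031 and 42831, Bama minipigs first), and Y-90, designed for miR-375, came next (34707 and 32765). Y-77 and Y-76, designed for miR-200c and miR-200a, also gave strong signals, at 16160 and 7906 in Bama minipigs and 16565 and 8688 in Landrace pigs. All 4 of these markers were thus strong in both pools.

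The mature sequences in the study's probe tables show what joins the family, with the seed in capitals, written 5′ to 3′.
ssc-miR-34a: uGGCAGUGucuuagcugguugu
ssc-miR-34c: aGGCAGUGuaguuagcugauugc
Y-91: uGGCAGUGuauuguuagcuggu
The seed GGCAGUG stood at bases 2 to 8 of these 3 probes, which is 0.845% of the 355 mature sequences, and it was found at any position in the same 3 sequences. The first base differed between the members, as U1A from ssc-miR-34a to ssc-miR-34c, counted from 1 at the 5′ end. Behind the seed, ssc-miR-34a and ssc-miR-34c shared a run of 7 bases, uuagcug, which began at base 11 in the former and at base 12 in the latter. A longer run of 9 bases, uuagcuggu, was shared by ssc-miR-34a and Y-91, from base 11 and base 14. Over the whole length, 5 single-base changes, insertions or deletions separated ssc-miR-34a from ssc-miR-34c, 6 separated ssc-miR-34a from Y-91, and 7 separated ssc-miR-34c from Y-91. The members had 22 and 23 bases, against a median of 22 over all probes. Their share of G and C was 50% for ssc-miR-34a and 47.8% for ssc-miR-34c, near the median of 50% over all probes.

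The precursor that the probe tables list for Y-91 has 81 bases. It is shown because the miR-449a sequence, in capitals, was matched in it exactly once, from base 11 to base 32, which places it on the 5′ arm of the hairpin.
Y-91 precursor: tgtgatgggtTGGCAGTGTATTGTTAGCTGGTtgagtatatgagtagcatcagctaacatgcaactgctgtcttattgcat
Among the members, ssc-miR-34c could be matched by name to a gene of the RefSeq annotation of the pig assembly Sscrofa11.1, MIR34C-1. That gene overlapped 2 other annotated genes, BTG4, a gene of the antiproliferative BTG/TOB family, and C9H11orf88. For ssc-miR-34a no position is given.

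The p53-regulated ssc-miR-34a gave a modest signal in both breeds and was slightly lower in Bama minipigs. Its signal was 199 in the Bama minipig pool and 253 in the Landrace pool. It ranked 157 of 355 in Bama minipigs and 145 of 355 in Landrace pigs, above the median of each. Taken as Bama minipigs over Landrace pigs, as throughout, the log2 ratio was -0.35, so the signal was 1.27-fold higher in Landrace pigs and stayed within the 2-fold limit used here as a rule of size. A ratio of this size was common on these arrays. Among the 76 other probes with a mean signal from 100 to 1000, 48 (63.2%) lay at least as far from equal signals, and 18 of the 77 probes of this class (23.4%) were past the 2-fold limit. Under the 5 other scalings and offsets tried, the log2 ratio ran from -0.53 to -0.28. An offset cannot change the sign of a ratio, and all settings reuse the same signals. Their shared direction is therefore not a further result. Without replicate arrays, whether this difference exceeds the spread between arrays could not be measured. In pooled tissue, fewer cells that hold a miRNA and less of it per cell could not be told apart either.

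In contrast to ssc-miR-34a, ssc-miR-34c gave signals near the lower end of both arrays. Its signal was 6.63 in the Bama minipig pool and 2.61 in the Landrace pool, ranks 278 and 304 of 355. The signals thus differed by 4.02 units, which as a log2 ratio is 1.34 and lies past the 2-fold limit. Over all probes, 123 of 355 (34.6%) were past this limit, 69 (19.4%) higher and 54 (15.2%) lower in Bama minipigs. Among the 89 probes with a mean signal below 10, the class of ssc-miR-34c, the number was 60 of 89 (67.4%), with 21 (23.6%) higher and 39 (43.8%) lower in Bama minipigs. With 50 signal units added to both signals, the log2 ratio of ssc-miR-34c was 0.11. Such an offset brings any ratio of 2 signals below 10 within the limit, so this value is not a further result. The table holds no background or spot data, so no call of detection was made and the ratio is not read as a difference between the breeds.

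The miR-449a probe also gave signals near the lower end, and its measured ratio ran the other way. The signal of Y-91 was 1.02 in the Bama minipig pool and 2.85 in the Landrace pool, ranks 317 and 300 of 355. Its log2 ratio was -1.49, past the 2-fold limit, but -0.77 after quantile normalization and -0.68 after cyclic loess, both within it. With 50 signal units added it was -0.05, which at such low signals follows from the offset. Both probes linked to multiciliated cells, ssc-miR-34c and Y-91, therefore stayed below 10 on both arrays, and their signals summed to 7.65 in Bama minipigs and 5.46 in Landrace pigs. Of the 3 probes with the family seed, ssc-miR-34a was the one with a signal above 100, and on both arrays.

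**Figure D1:**
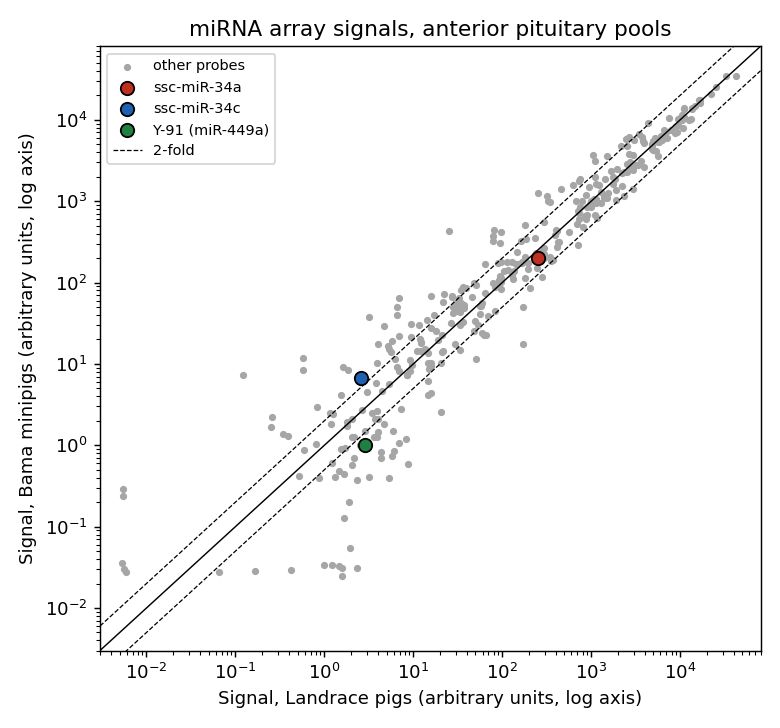
Signals of all 355 probes in Landrace pigs (x axis) and Bama minipigs (y axis), in arbitrary units on log axes, with 1 array per breed. Each point is a probe, the solid line marks equal signals and the dashed lines 2-fold. The point of ssc-miR-34a (199 in Bama minipigs, 253 in Landrace pigs) lies between the dashed lines, whereas ssc-miR-34c (6.63 and 2.61) and Y-91 (1.02 and 2.85) lie past opposite lines in the wide scatter below 10, Y-91 falling within 2-fold after quantile normalization or loess.

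The spread between the breeds narrowed as signals rose. Without its sign, the log2 ratio had a median of 1.58 for mean signals below 10, the class of ssc-miR-34c and Y-91. It was 0.82 from 10 to 100, 0.45 from 100 to 1000, the class of ssc-miR-34a, 0.29 from 1000 to 10000 and 0.07 above 10000. The log2 ratio of ssc-miR-34a was therefore below the median size of its class, and that of ssc-miR-34c was below the median size of its own.

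The probes most like each member were taken as the 3 with the smallest distance in the log2 signals of the 2 arrays. For ssc-miR-34a these were ssc-miR-425-3p, with 205 in the Bama minipig and 231 in the Landrace pool, ssc-miR-362, with 201 and 230.2, and ssc-miR-424, with 229 and 238. Their log2 ratios were -0.17, -0.19 and -0.06. That they share the direction of ssc-miR-34a follows from how they were chosen and is not a further result. For ssc-miR-34c the nearest was ssc-miR-196b-3p, with 5.92 and 2.55, followed by ssc-miR-4333, with 5.83 and 3.77, and ssc-miR-105-1, with 4.48 and 2.99. With 2 values per probe, this likeness describes signal levels only.

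To place the members among other miRNAs tied to p53, 13 miRNAs were listed by their known link to it. Of these, 9 differed by less than 2-fold in measured signal and 4 by more, 2 higher and 2 lower in Bama minipigs. This share of 30.8% lay near the 34.6% over all probes. With 50 signal units added to both signals, 0 of the 13 were past the limit, and over all probes 23 were past it as higher and 4 as lower in Bama minipigs. The median log2 ratio of the list was -0.10, against 0.03 over all probes. Of the 13, 8 had a signal above 100 on at least 1 array, and 1 of these 8 was past the 2-fold limit (12.5%, against 16.8% of the 185 such probes).

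Besides the members, 6 of the listed miRNAs are known to be raised by p53 at transcription. The signals of ssc-miR-107, a miRNA made from a pantothenate kinase gene, were 5568 in the Bama minipig pool and 4909 in the Landrace pool (log2 ratio 0.18). Those of ssc-miR-145, abundant in smooth muscle, were 5602 and 6266 (log2 ratio -0.16), and Y-77, for miR-200c, which keeps epithelial cells epithelial, had a log2 ratio of -0.04. These 3 strong signals differed by 1.03-fold to 1.13-fold between the breeds. The miR-192, miR-194 and miR-215 miRNAs, which are known to repress the p53 inhibitor MDM2, were all weak. The signals of ssc-miR-192 were 30.2 and 11.5, those of ssc-miR-215 were 8.25 and 6.85, and those of ssc-miR-194-5p were 0.029 and 0.17. Of these, ssc-miR-192 (log2 ratio 1.39) and ssc-miR-194-5p (log2 ratio -2.53) were past the 2-fold limit, in opposite directions. The latter was 1 of the 12 probes below 0.05 in Bama minipigs, at the very bottom of that array.

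The processing of some miRNA precursors is also known to be helped by p53. Of the 3 miRNAs listed for this, ssc-miR-145 was described above (log2 ratio -0.16). Another, ssc-miR-16, which restrains the cell cycle, gave 8568 in the Bama minipig pool and 9377 in the Landrace pool (log2 ratio -0.13). The signal of ssc-miR-143-3p, which shares its cluster with miR-145, was 1163 in the Bama minipig pool and 2343 in the Landrace pool (log2 ratio -1.01). It was the 1 listed miRNA above 100 that passed the 2-fold limit, and with 50 signal units added its log2 ratio was -0.98. Another set acts on the p53 mRNA itself. Its members ssc-miR-125b, with 20709 and 22463 (log2 ratio -0.12), and ssc-miR-30d, with 8361 and 8953 (log2 ratio -0.10), were nearly equal in the breeds, and ssc-miR-504 was weak, with 43.0 and 33.2.

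**Figure D2:**
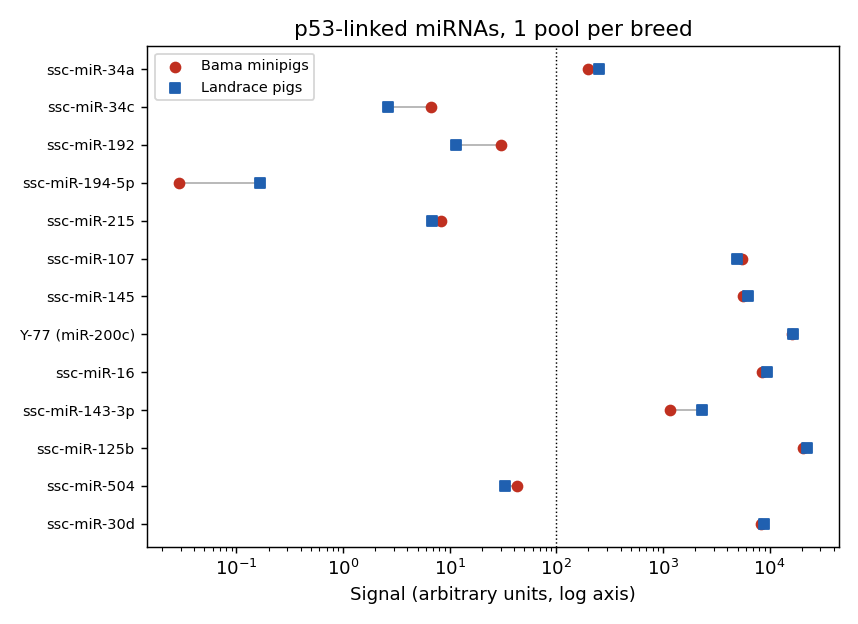
Signals of the 13 p53-linked miRNAs in arbitrary units on a log axis, with circles for Bama minipigs, squares for Landrace pigs and a dotted line at 100. Each point is 1 array of pooled RNA; 8 of the 13 reach above 100 on at least 1 array, ssc-miR-34a (199 and 253) with the lowest signals among them.

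Markers of other cells that a dissected anterior lobe could hold were set beside these values. The striated muscle miRNAs summed to 1528 in the Bama minipig pool and 659.7 in the Landrace pool. Of these, 3 of 6 were at least 2-fold higher and 2 of 6 at least 2-fold lower in Bama minipigs. Past the limit were 83.3% of these 6 markers, 34.6% of all 355 probes and 23.4% of the probes with mean signals from 100 to 1000. By mean signal the brightest muscle marker was ssc-miR-133b, with 439 in Bama minipigs and 80.6 in the Landrace pool. Also higher in Bama minipigs were ssc-miR-1, with 426 and 25.1 (log2 ratio 4.08), and ssc-miR-133a-3p, with 370.4 and 79.2 (log2 ratio 2.23). On the Landrace array the brightest was ssc-miR-206, which ran the other way, with 117 and 278. Near 0 was ssc-miR-208b, with 0.83 and 4.29. The remaining muscle marker, ssc-miR-499-5p, was nearly equal in the breeds, with 175 and 192 (log2 ratio -0.14). The lobes had been rinsed in PBS against blood. The red blood cell miRNAs summed to 5494 and 6023, 0 of 2 being past the limit, and they ran in opposite directions, with ssc-miR-451 at 5286 and 5841 and ssc-miR-486 at 208 and 182. The miRNAs of neurons and glia summed to 5643 and 5733, mostly from ssc-miR-128 at 5384 and 5602, but 3 of the 4 were higher in Bama minipigs and the median log2 ratio was 0.88. These were ssc-miR-124a, with 66.3 and 27.0 and past the limit, ssc-miR-153, with 180.4 and 98.0, and ssc-miR-9-1, with 11.5 and 6.26. The summed signals of the red blood cell, neuron and glia, and pituitary markers were higher in Landrace pigs. Of the single markers in these sets, 1 of 2, 3 of 4 and 1 of 4, in that order, were higher in Bama minipigs. The summed signals of the striated muscle and multiciliated cell markers were higher in Bama minipigs, the latter at 7.65 and 5.46. The part of any of these cells in the signals of the members was not tested.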

How the data were processed

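Per the labels and the paper's methods, small RNAs of 1 RNA pool of 3 pigs per breed were tailed, tagged and hybridized to custom μParaflo chips, and Cy5 images were scanned and digitized. The authors subtracted the background and normalized the deposited intensity values with a LOWESS filter. How values under the background were kept above 0 is not given in the sources used here, and low signals and their ratios depend on it. The study's calls of detection, its p-values and its spread between spots were not used.

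The log2 ratio of the 2 intensities was computed for all 355 probes with no further scaling and no test. Mature sequences came from the study's probe tables, and gene names from RefSeq's pig annotation. The number of arrays limits the precision. Alternatives were median scaling over probes above 100 on both arrays, 75th percentile scaling, quantile normalization, cyclic loess (3 iterations), an offset of 50 and minimum signals of 100 and 500. The scalings and the offset were tested on simulated data whose starting signals all lay above 100. That test does not cover weak signals such as those of ssc-miR-34c and Y-91. R 4.3.3, limma 3.58.1, Python 3.11.15, numpy 2.4.6, pandas 2.3.3 and matplotlib 3.10.9 were used. Named miRNAs were the members, seed relatives, nearest probes, p53-linked miRNAs and cell markers. The members and lists were chosen with earlier results of these data known.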

Additional observations from a re-analysis of the deposited data

How the results depend on the processing

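The log2 ratio of ssc-miR-34a, -0.35, was -0.46 after median scaling, -0.53 after scaling to the 75th percentile, -0.53 after quantile normalization and -0.52 after loess. That of ssc-miR-34c, 1.34, was 1.23, 1.16, 1.48 and 1.73 in the same order and 0.11 with an offset of 50. Median scaling lowered the median log2 ratio of all probes by 0.11 and scaling to the 75th percentile lowered it by 0.19. The 69 probes at least 2-fold higher in Bama minipigs were 23 with the offset, 24 above a signal of 100 and 16 above 500, and the 54 lower were 4, 7 and 3. The log2 ratio of Y-91, -1.49, was -1.60, -1.67, -0.77, -0.68 and -0.05 under the same settings as ssc-miR-34c, and for ssc-miR-143-3p it went from -1.01 to -1.12, -1.20, -1.12, -1.10 and -0.98. Among the probes past the 2-fold limit, 56.1% were higher in Bama minipigs in the main setting. This share was 50.8% after median scaling and 48.8% after scaling to the 75th percentile (63 higher and 66 lower). It was 53.4% after quantile normalization, 59.6% after loess, 85.2% with the offset, 77.4% above 100 and 84.2% above 500. Of the p53-linked miRNAs, 4 were past the limit, 0 with the offset and, in an alternative chosen after seeing the data, 1 above 100. For the members' ratios and the counts, other moves were under 0.1 in log2 ratio or within a factor of 1.5. The cause of these moves was not tested. No paired analysis was possible because each breed had 1 array. Leaving out a replicate was not possible for the same reason. Signals below 10 gave log2 ratios that cannot be read without background data.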
